A study of Mus musculus with 10 samples.

Results

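The chemokine genes Ccl21a, Ccl19, Ccl17, Ccl22, Ccl20, Cxcl9 and Cxcl10 were examined for called ATAC-seq peaks in mouse thymic epithelial cells (TEC). A called peak belonged to a gene when it lay in the gene's RefSeq span or within 25 kb of either end, and peaks of all libraries that overlapped or touched were merged into regions. The windows of these 7 of 21770 protein-coding genes held 61 of 350685 regions, built from 244 of 882163 peaks. The selection rule names the genes and uses no peak values, but it was drawn up with earlier results of these data known.

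ATAC-seq, in which a transposase cuts accessible DNA, had been applied to sorted TEC of wild-type C57BL/6 mice, with 2 libraries in each of 5 groups. The groups were embryonic day 15 (E15), embryonic day 17 (E17) and 3 fractions of day 6 titled mTEC4, mTEC1 and mTEC2. Every mouse was wild type and no treatment is labelled. What the fraction names stand for is not explained, no fraction is named for the embryonic libraries, and individual peaks carry names of other fractions, so groups follow the titles. Because the 4 embryonic and the 6 day 6 libraries differ in age and in fraction, these cannot be told apart. Nothing says that the 2 libraries of a group came from separate animals, so the spread within a group may be technical. The embryonic against day 6 test treats all 10 libraries as exchangeable. Its p-values thus measure a spread that also holds differences between E15 and E17 and between the day 6 fractions. If the 2 libraries of a group are not independent, these p-values are too small.

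Chemokines are small secreted proteins that guide cells through tissue by way of receptors on the cell surface. In the thymus, CCL21 and CCL19 act on CCR7 and draw positively selected thymocytes from the cortex into the medulla. CCL17 and CCL22 act on CCR4, which is found on recently selected thymocytes, and CCL20 acts on CCR6. CXCL9 and CXCL10 act on CXCR3 and are known as interferon-induced genes. Lymphotoxin and related signals that act through NF-kB are known to support medullary TEC and their Ccl21a.

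The upstream sequences are shown for the 4 genes that had a peak called at the start in any library. It was called in all 10 libraries at Cxcl10, in 5 at Ccl21a, in 5 at Ccl19 and in 1 at Cxcl9. Each line gives the 250 bases before the RefSeq start, 5' to 3' on the gene's strand (minus strand for all 4, GRCm38.p6, the assembly of mm10). Capitals mark the letters searched for.
Cxcl10, chr5:92348890-92349139: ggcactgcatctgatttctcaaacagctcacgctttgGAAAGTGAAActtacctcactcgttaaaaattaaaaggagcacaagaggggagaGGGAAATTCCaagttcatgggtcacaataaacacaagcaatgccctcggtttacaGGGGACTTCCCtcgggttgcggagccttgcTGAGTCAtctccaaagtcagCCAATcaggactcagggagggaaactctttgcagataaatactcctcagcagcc
Ccl21a, chr4:42773992-42774241: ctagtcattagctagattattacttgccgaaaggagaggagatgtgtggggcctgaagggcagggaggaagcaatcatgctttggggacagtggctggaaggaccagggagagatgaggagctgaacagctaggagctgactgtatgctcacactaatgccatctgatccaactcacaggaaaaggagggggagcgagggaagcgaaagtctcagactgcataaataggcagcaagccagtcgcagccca
Ccl19, chr4:42756366-42756615: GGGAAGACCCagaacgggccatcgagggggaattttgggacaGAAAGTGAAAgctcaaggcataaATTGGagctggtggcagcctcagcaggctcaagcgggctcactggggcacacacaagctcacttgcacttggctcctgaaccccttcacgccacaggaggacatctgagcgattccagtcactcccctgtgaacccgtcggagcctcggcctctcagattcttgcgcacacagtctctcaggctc
Cxcl9, chr5:92328080-92328329: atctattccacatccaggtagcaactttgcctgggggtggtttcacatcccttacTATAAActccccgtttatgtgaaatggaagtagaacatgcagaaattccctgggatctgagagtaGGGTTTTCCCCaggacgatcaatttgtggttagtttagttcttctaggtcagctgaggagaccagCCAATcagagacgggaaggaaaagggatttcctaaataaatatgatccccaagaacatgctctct

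The search covered both strands of the 300 bases from 250 before to 50 after each start. The NF-kB letters (GGG, any 5 bases, then CC) were found at Ccl19, Ccl22, Ccl20, Cxcl9 and Cxcl10, and in 50.8% of 32851 promoters of the same length. The interferon response letters (GAAA, any 2 bases, then GAAA), held by 3.44% of promoters, were found at Cxcl10 and Ccl19, in both as GAAAGTGAAA. The AP-1 letters TGANTCA (7.81% of promoters) occurred at Cxcl10 and, after the start and outside the printed line, at Cxcl9. CCAAT (37.4%) occurred at Ccl19, Cxcl9 and Cxcl10, TATAAA (13.6%) at Cxcl9, and the STAT letters TTCNNNGAA (8.3%) at Ccl17. Ccl21a held none of the letters searched, and no member held the FOXN1 core GACGC (27.2%). NF-kB matches overlapped one another within Cxcl10, Cxcl9 and Ccl20. The NF-kB letters fitted both strands at the same bases in Ccl19, Ccl20, Cxcl9 and Cxcl10. No other motifs overlapped. A match is a description and not a shown binding site.

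The start sites of the members fell into 4 kinds. Only Cxcl10 had a peak within 1 kb of its start in all 10 libraries, which was the case for 38.2% of the 17491 genes with a listed start. Ccl21a had one in E15 replicate 1, both E17 libraries and both mTEC1 libraries. Ccl19 had one in both E15 libraries, mTEC1 replicate 1 and both mTEC2 libraries. Cxcl9 had one in E15 replicate 1 only, and Ccl17, Ccl22 and Ccl20 had none in any library, as did 26.5% of all genes. The same calls were obtained within 250 bp and within 2 kb of the start. These calls use listed starts only, and that of Ccl17 (94810453) lies inside a gene span that begins at 94809380. Over all genes, 64.7% to 68.9% had a start peak in an embryonic library and 45.5% to 61.6% in a day 6 library. The absence of a called peak does not show closed chromatin, and fewer cells with open DNA cannot be told apart from less open DNA per cell.

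**Figure D1:**
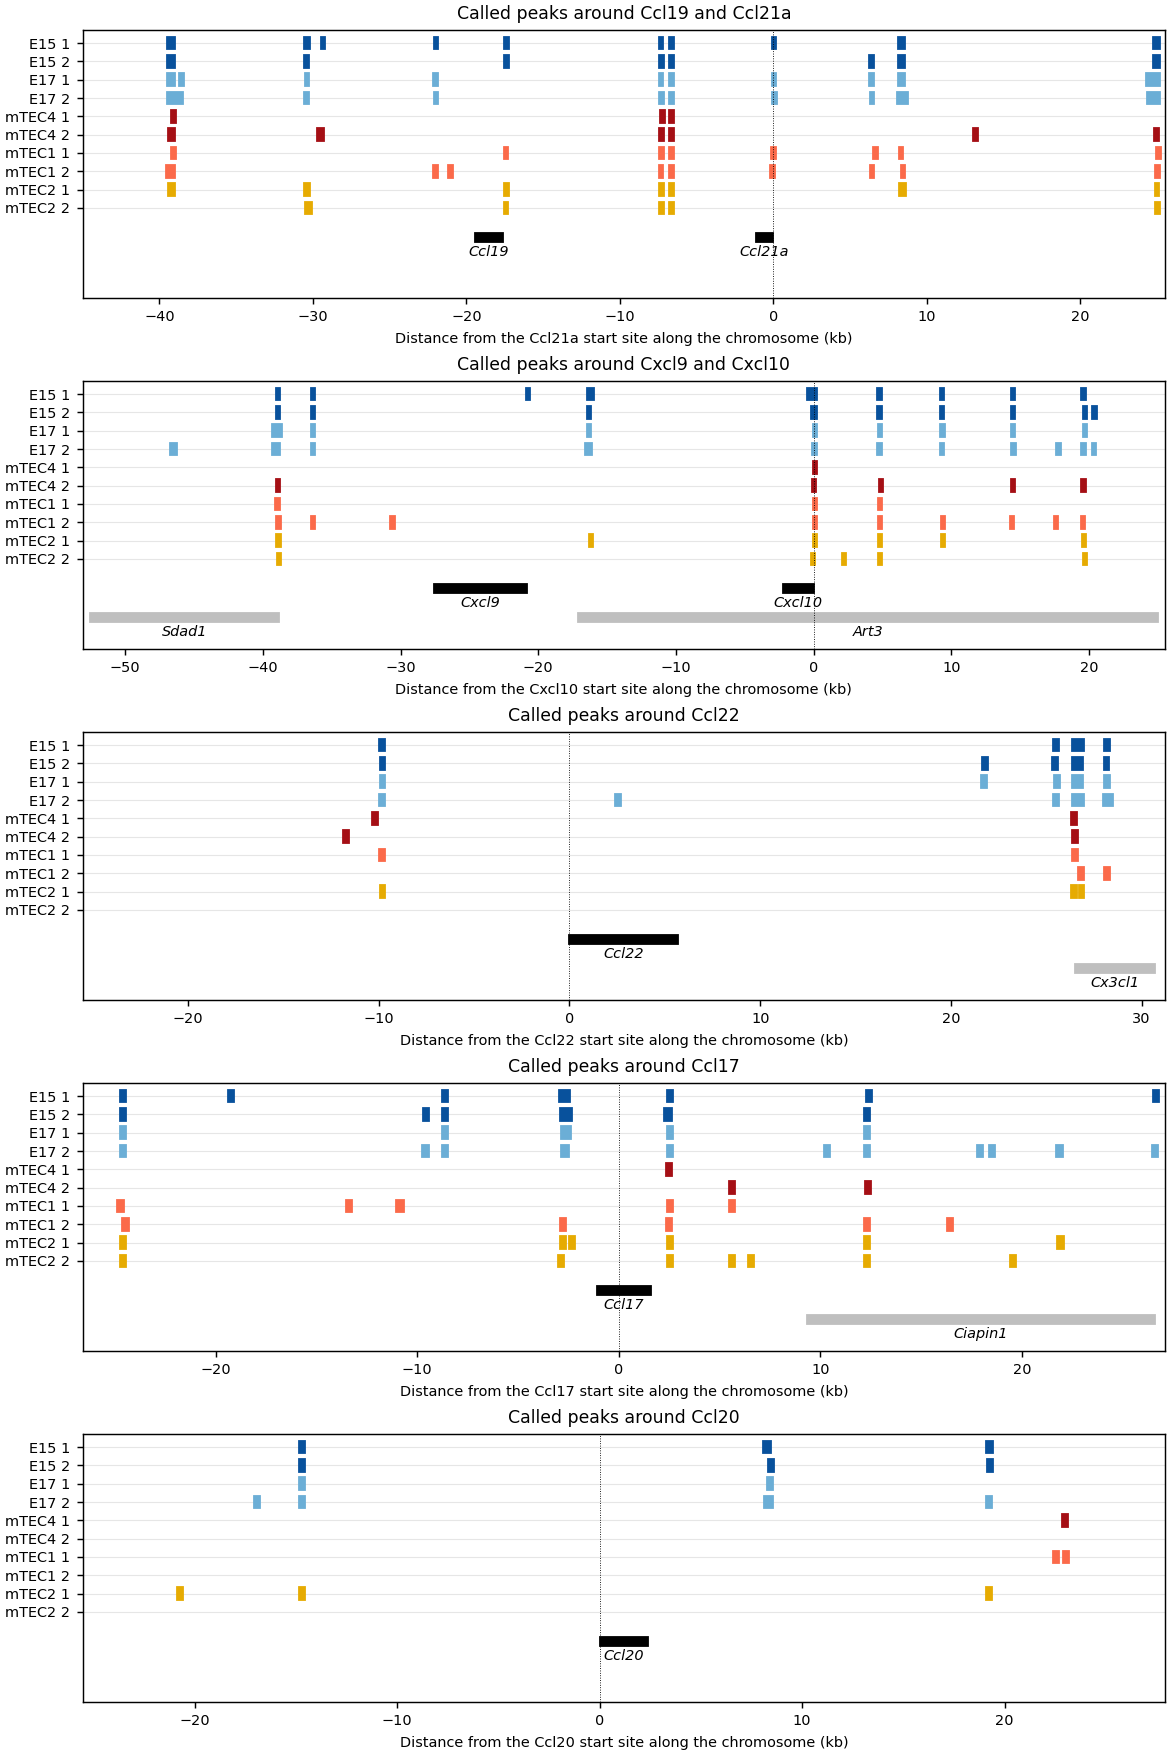
Called peaks in each of the 10 libraries around the members, with distance from a start site along the chromosome in kb on the horizontal axis and one row per library, coloured by group. Black bars are member genes, grey bars are other protein-coding genes, and peaks narrower than 300 bp are drawn 300 bp wide. All 10 libraries have a peak at the Cxcl10 start and a pair of peaks between Ccl19 and Ccl21a.

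At the Cxcl10 start (gene span 92346638 to 92348889 on chromosome 5), the region from 92348435 to 92349124 was called in every library and, merged, covered the start. The authors' fold enrichment of its peak was 7.21 and 7.45 in E15, 6.94 and 9.34 in E17, 4.31 and 4.98 in mTEC4, 6.63 and 4.73 in mTEC1, and 6.02 and 3.77 in mTEC2. These folds are the caller's own values for each list and are not compared between lists. Within its own list, the peak had a lower q than 77.6% to 95% of peaks in 9 libraries and than 39.3% in mTEC2 replicate 2.

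The peak reached a different distance upstream of Cxcl10 in the 2 ages. Its width was 688, 429, 258 and 323 bp in the embryonic libraries. At day 6 it was 118 and 130 bp in mTEC4, 106 and 184 bp in mTEC1, and 213 and 328 bp in mTEC2. The interferon response letters GAAAGTGAAA at 92349093 to 92349102 lay inside the called peak in 4 of 4 embryonic libraries and in 0 of 6 day 6 libraries. The distal NF-kB letters GGGAAATTCC at 92349039 to 92349048 lay inside it in all 4 embryonic libraries, mTEC1 replicate 2 and mTEC2 replicate 1. The proximal NF-kB letters GGGACTTCCC at 92348983 to 92348992, TGAGTCA and CCAAT lay inside it in all 10 libraries. This coverage was noticed in the data and not tested. Peaks were wider in the embryonic lists throughout, with a median width of 185 to 200 bp against 106 to 135 bp at day 6, and the part of that width in the coverage was not tested. At Ccl19 the same letters GAAAGTGAAA at 42756564 to 42756573 on chromosome 4 lay inside the peak in each of the 5 libraries that called one there.

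Ccl21a (42772860 to 42773991 on chromosome 4, minus strand) and Ccl19 (42754525 to 42756365, minus strand) are neighbours, and 8 of the 11 regions in each window were shared by both. All lie within the span of the long noncoding RNA gene 4930578G10Rik. The regions called most evenly were a pair between the 2 genes, at 42766577 to 42766942 and at 42767294 to 42767434, which are 7.23 and 6.63 kb downstream of the Ccl21a start and -10.39 and -11.00 kb from that of Ccl19 (negative values are upstream). Each was called in all 10 libraries. Their q was lower than that of 90.2% to 98.2% and of 85.7% to 99.4% of the peaks in the same list, and the authors' fold reached 13.2 and 16.7, both in E17 replicate 2. Of the 61 member regions, 3 were called in all 10 libraries, these and the one at the Cxcl10 start, against 4.16% of 219116 regions within 25 kb of any gene.

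At the Ccl21a start itself, the region from 42773775 to 42774250 was called in 3 of 4 embryonic libraries and both mTEC1 libraries, and in neither mTEC4 nor mTEC2. The authors' fold there was 4.45 in E15 replicate 1, 5.28 and 3.91 in E17, and 3.97 and 3.27 in mTEC1, and the peaks ranked between the 32.6th and the 56.8th percentile of q in their lists. Among genes with a listed start, 28 of 17491 (0.16%) had a start peak in both mTEC1 libraries and in no other day 6 library, and 20 of these also had one in an embryonic library. Ccl21a was singled out here after its values were seen. A nearly identical copy limits this locus: 297 of 299 promoter bases of Ccl21a and Ccl21d were the same, and reads from the copies cannot be told apart with certainty. Ccl21d and the further gene Ccl21b each had a start peak in all 4 embryonic libraries, mTEC1 replicate 2 and mTEC2 replicate 1. How such copies bear on the other regions of the Ccl21a and Ccl19 windows was not tested.

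Upstream of Ccl21a, the region at -8.43 kb (42782079 to 42782757) was called in all 4 embryonic libraries, both mTEC1 libraries and mTEC2 replicate 1. The region at -24.75 kb (42798266 to 42799214), inside the pseudogene Gm12394, was called in every library except mTEC4 replicate 1. Downstream of Ccl19, the region at 21.41 kb (42734399 to 42735510) was missing only in mTEC2 replicate 2. The region at 12.67 kb (42743425 to 42743962) was called in all embryonic and both mTEC2 libraries and in no mTEC4 or mTEC1 library. Both mTEC4 libraries thus lacked peaks at the 2 start sites and at these regions at -8.43 and 12.67 kb, while keeping the pair between the genes.

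Cxcl9 (92321331 to 92328079 on chromosome 5, minus strand) and Cxcl10 share 4 regions, and the gene Art3 runs across the Cxcl10 part. The Cxcl9 start had a single narrow peak, at 92328058 to 92328177 in E15 replicate 1, with a fold of 3.49 and a lower q than only 9% of that list. The region at -4.81 kb from the Cxcl10 start (92353517 to 92353884) was called in all libraries but mTEC4 replicate 1. The region at -9.34 kb (92358100 to 92358367) was called in the 4 embryonic libraries, with folds of 8.31, 7.47, 8.84 and 9.55, and at day 6 in mTEC1 replicate 2 (3.75) and mTEC2 replicate 1 (4). A further region at -14.51 kb overlaps the Cxcl11 pseudogene at its higher coordinate, 92363296. This region was called in the 4 embryonic libraries, mTEC4 replicate 2 and mTEC1 replicate 2. In mTEC4 replicate 1 the start peak was the only one in the Cxcl10 window. Cxcl11, another CXCR3 ligand in other mouse strains, is listed as a pseudogene in this assembly.

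Ccl22 (94745684 to 94751388 on chromosome 8, plus strand) had no peak at its start, and most of its calls lay far from the gene. The region at -9.82 kb (94735754 to 94735974) was called in all 4 embryonic libraries, with folds of 8.04, 8.57, 6.91 and 10.5, and in mTEC1 replicate 1 and mTEC2 replicate 1. A region at 25.53 kb (94771058 to 94771363), beside the neighbouring gene Cx3cl1 (94772180 to 94782427), was called in all 4 embryonic and no day 6 library. The next, at 26.65 kb (94772016 to 94772650), overlaps the start of the membrane-bound chemokine gene Cx3cl1 and was called in every library except mTEC2 replicate 2. A region at 28.22 kb (94773645 to 94774160), inside Cx3cl1, was called in all 4 embryonic libraries and mTEC1 replicate 2. In mTEC2 replicate 2 the Ccl22 window held no peak at all.

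Ccl17 (94809380 to 94812038 on chromosome 8, plus strand, with the listed start at 94810453) had the most regions, 18, of which 9 were called in 1 library. Its most widely called region lay at 2.45 kb (94812713 to 94813094), just past the gene's end, in all libraries but mTEC4 replicate 2. The authors' fold there was 8.2 and 7.1 in E15, 15.3 and 17 in E17, 3.84 in mTEC4 replicate 1, 3.85 and 4.85 in mTEC1, and 6.73 and 3.54 in mTEC2. The 2 E17 peaks had a lower q than 99.6% and 99.1% of their lists. A region at -24.62 kb (94785558 to 94786114) was called in all embryonic, mTEC1 and mTEC2 libraries and in neither mTEC4 library. The region at -8.62 kb (94801740 to 94801919) was called in the 4 embryonic libraries alone, and the one at -2.61 kb (94807495 to 94808184) in those 4, mTEC1 replicate 2 and both mTEC2 libraries.

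Ccl20 (83116766 to 83119167 on chromosome 1, plus strand) had the fewest calls. Its 7 regions included one at -14.69 kb (83101969 to 83102189), called in the 4 embryonic libraries and mTEC2 replicate 1, and one at 8.31 kb (83124826 to 83125333), called in the 4 embryonic libraries alone. Windows without a single peak were those of mTEC4 replicate 2, mTEC1 replicate 2 and mTEC2 replicate 2.

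Over all members, 25 of 61 regions had a peak in each of the 4 embryonic libraries, against 23.9% of regions near genes. The 3 regions called in all 4 embryonic and no day 6 library, 1 each in the windows of Ccl17, Ccl22 and Ccl20, compare with 5.06% of regions near genes. That of the Ccl22 window lies beside Cx3cl1. Of the 61, 22 were called in 1 library, against 50.1%, and none was called in all 6 day 6 and no embryonic library, against 0.0424%. Counting partial patterns, 15 of the 61 had no day 6 call and 16 had no embryonic call. Of these 16, the one called in the most day 6 libraries lay at 5.63 kb of Ccl17 (94816010 to 94816154), in mTEC4 replicate 2, mTEC1 replicate 1 and mTEC2 replicate 2, with folds of 6.98, 6.69 and 3.82. With each list limited to its 40858 strongest peaks, the length of the shortest, 0 regions kept the pattern of all 4 embryonic and no day 6 library (an alternative added after seeing the data).

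The count of called regions per window was then compared between embryonic and day 6 libraries by an exact two-sided permutation test over the 210 choices of 4 of 10 libraries. The test was run for all 21770 protein-coding genes, with Benjamini-Hochberg adjustment over all of them. One member was called at an adjusted p under 0.05, Ccl22. At an unadjusted p under 0.05 there were 5 of 7 members, beside 10156 of the 21770 genes. Of all genes, 22.5% were called with more regions in embryonic libraries and 0.294% with more at day 6, so 1 of 7 is not above the background. When peaks with −log10 q under 2 were left out, 7 of 7 members and 13628 of all genes were called. Ccl22 was also the only member whose embryonic counts all lay above all day 6 counts, as they did for 19.6% of genes. The embryonic lists were longer, with 86237 to 151646 peaks against 40858 to 101917, and the read depth is unknown.

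**Figure D2:**
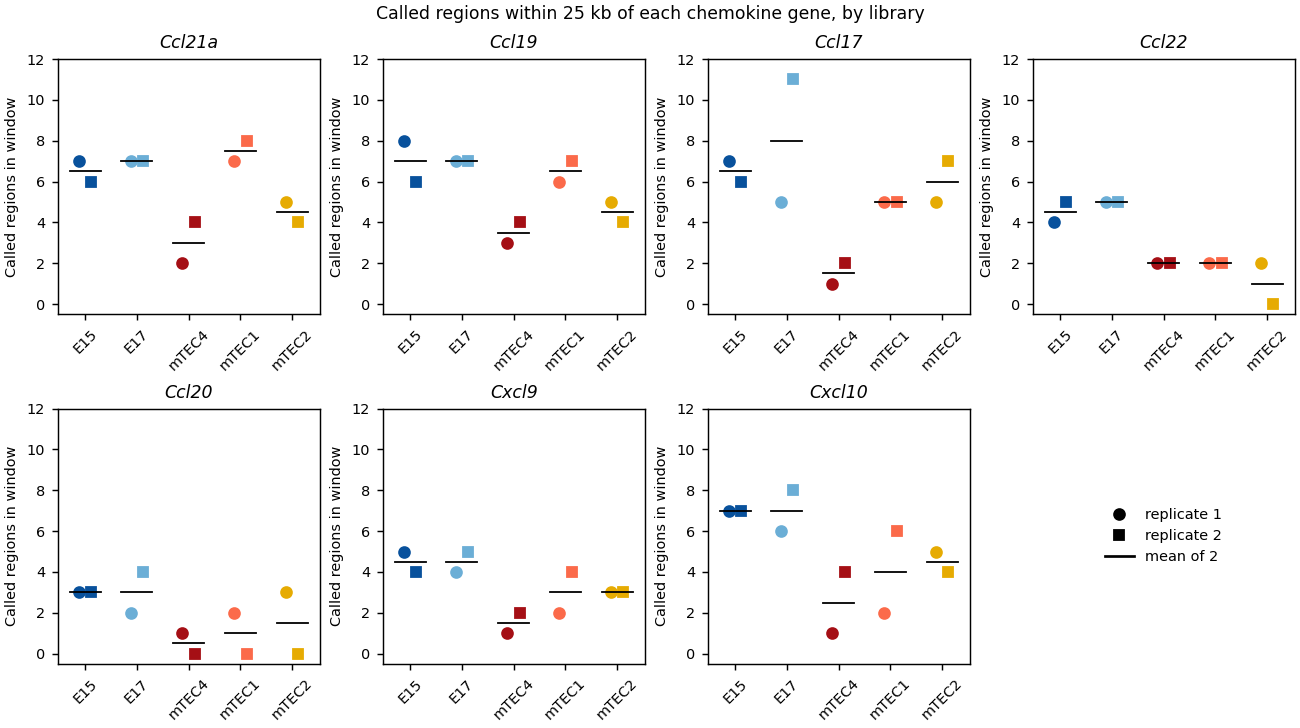
Called regions within 25 kb of each member (vertical axis, count) in each library by group (horizontal axis), with circles for replicate 1, squares for replicate 2 and a line for the mean of the 2. Ccl21a and Ccl19 have means of 7.5 and 6.5 in mTEC1 and 3 and 3.5 in mTEC4, while Ccl22 stays at or below 2 in every day 6 library.

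Ccl22 had 4 and 5 regions in E15, 5 and 5 in E17, 2 in each mTEC4 and mTEC1 library, and 2 and 0 in mTEC2. Its mean was 4.75 ± 0.5 (SD, n = 4) in embryonic and 1.67 ± 0.816 (SD, n = 6) in day 6 libraries, a difference of 3.08 regions (exact permutation p = 0.00476, adjusted p = 0.0293). The groups did not overlap. The count includes the regions at 25.53, 26.65 and 28.22 kb, which lie at or beside Cx3cl1, so the difference is not particular to Ccl22. The call was lost with lists of equal length (difference 0.5, exact permutation adjusted p = 0.737) and in a 10 kb window, which leaves out Cx3cl1 (difference 0.917, exact permutation adjusted p = 0.13). It was also lost without any 1 of 8 libraries, at exact permutation adjusted p of 0.0538 to 0.0726, and was kept only without E17 replicate 1 or mTEC2 replicate 1. In those 8 runs no gene was called, so the loss is not particular to Ccl22. The difference at Ccl22 was 2.75 to 3.33 with 1 library left out.

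Cxcl10 had 7 and 7 regions in E15, 6 and 8 in E17, 1 and 4 in mTEC4, 2 and 6 in mTEC1, and 5 and 4 in mTEC2. The means were 7 ± 0.816 (SD, n = 4) and 3.67 ± 1.86 (SD, n = 6), and the ranges touched at 6 (exact permutation adjusted p = 0.0677). Cxcl9 had 5 and 4, 4 and 5, 1 and 2, 2 and 4, and 3 and 3 in the same order, with the same adjusted p of 0.0677 from the exact permutation test. Its ranges touched at 4 regions.

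Ccl21a had 7 and 6 regions in E15, 7 and 7 in E17, 2 and 4 in mTEC4, 7 and 8 in mTEC1, and 5 and 4 in mTEC2. The mTEC1 counts lay at or above every embryonic count and the mTEC4 counts below all of them. The means of 6.75 ± 0.5 (SD, n = 4) and 5 ± 2.19 (SD, n = 6) differed by 1.75 (exact permutation adjusted p = 0.273). Ccl19 had 8 and 6, 7 and 7, 3 and 4, 6 and 7, and 5 and 4 in that order, with means of 7 ± 0.816 (SD, n = 4) and 4.83 ± 1.47 (SD, n = 6) (exact permutation adjusted p = 0.102). Most of these regions are shared with Ccl21a, so the 2 genes are not independent.

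Ccl17 had 7 and 6 regions in E15, 5 and 11 in E17, 1 and 2 in mTEC4, 5 and 5 in mTEC1, and 5 and 7 in mTEC2, and the difference of 3.08 did not pass (exact permutation adjusted p = 0.187). Here mTEC4 was the low group and the other fractions overlapped the embryonic range. Ccl20 had 3 and 3, 2 and 4, 1 and 0, 2 and 0, and 3 and 0 in that order (exact permutation adjusted p = 0.102). All 7 members had more regions in embryonic libraries on average, yet the median gene did too, by 2 regions. The share of genes with a smaller difference was 44.7% for Ccl21a, 48.9% for Ccl20 and Cxcl9, 52% for Ccl19, 64.4% for Ccl17 and Ccl22, and 68.2% for Cxcl10.

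**Figure D3:**
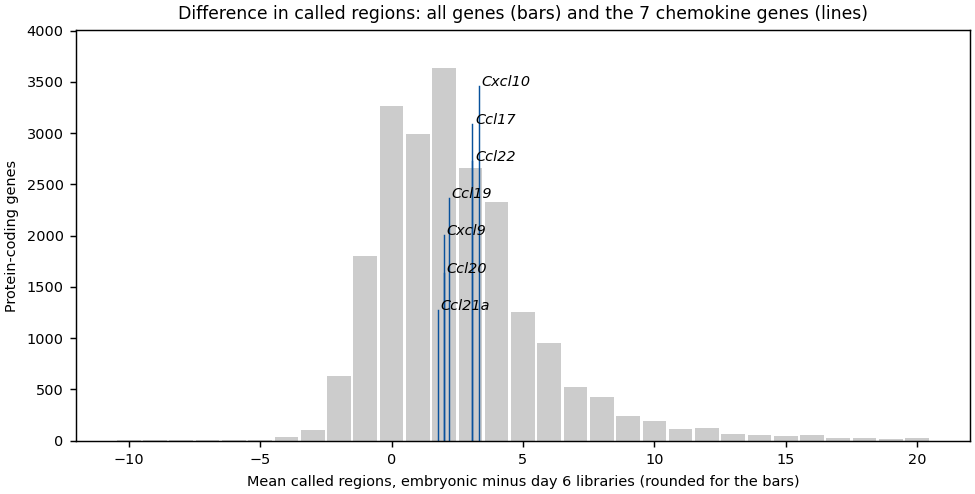
Number of protein-coding genes (vertical axis, bars) by the difference in mean called regions, embryonic minus day 6 libraries (horizontal axis), with lines at the 7 members. The members lie between 1.75 and 3.33, around the median gene at 2.

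Across the 5 groups, an exact permutation test over every way to pair the 10 libraries called none of the 21770 genes (0%) and no member. At an unadjusted p under 0.05 it gave 2890 genes and 2 members, Ccl21a (exact permutation p = 0.0254, adjusted p = 0.365) and Ccl22 (exact permutation p = 0.0476, adjusted p = 0.365). Within day 6 alone the 15 pairings allow no p below 0.0667, so the mTEC1, mTEC2 and mTEC4 counts are given as values only. The mean over the 2 libraries was lowest in mTEC4 for Ccl21a (3), Ccl19 (3.5), Ccl17 (1.5), Ccl20 (0.5), Cxcl9 (1.5) and Cxcl10 (2.5), and in mTEC2 for Ccl22 (1). Over all genes the mean per window was 3.04 and 3.65 in mTEC4, 3.55 and 3.84 in mTEC1, and 5.32 and 2.52 in mTEC2, so the mTEC4 mean was the lowest there too.

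With lists of equal length the embryonic excess shrank or turned. Ccl21a then had 3 regions in each embryonic library, 2 and 2 in mTEC4, 4 and 7 in mTEC1, and 5 and 4 in mTEC2, a difference of -1 (exact permutation p = 0.462). The 4 libraries of mTEC1 and mTEC2 all lay above the embryonic ones and mTEC4 below. Ccl19 had a difference of -1.25 (exact permutation p = 0.124). Ccl17 differed by 1.25, Cxcl10 by 0.667, Ccl22 by 0.5, Ccl20 by 0.333 and Cxcl9 by 0.167, beside a median of 0.167 over all genes. The exact permutation test then called none of the genes in either direction (0%), with 3225 genes and 0 members at an unadjusted p under 0.05. When counts were replaced by percentiles among all genes of the library, again no gene was called (0%), and 4735 genes and 1 member, Ccl22, had an unadjusted p under 0.05. The Ccl21a window stood at percentiles 91.5 and 92.3 in mTEC1, 38.2 and 62.3 in mTEC4, 54.5 and 78.4 in mTEC2, and 50.1 to 73.1 in embryonic libraries.

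**Figure D4:**
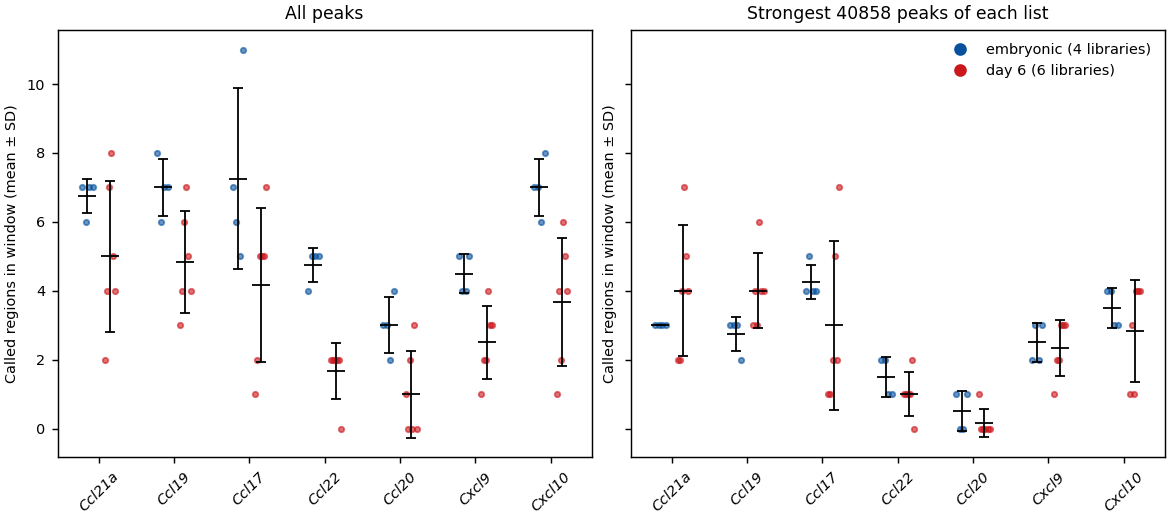
Called regions per window (vertical axis, mean ± SD with the libraries as points) for each member in 4 embryonic and 6 day 6 libraries, with all peaks on the left and the 40858 strongest peaks of each list on the right. On the right the day 6 mean of Ccl21a and Ccl19 is 4, above the embryonic means of 3 and 2.75.

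The genes whose covered bases per window were most like those of a member were found over the 10 libraries, by the mean absolute difference in log2(bases + 100). For Ccl21a they were Slc25a54 (0.20), Top3a (0.20) and Fer1l4 (0.21). For Ccl19 they were Cd52 (0.15), Spata9 (0.15) and F12 (0.17). Fn1 (0.15) was closest to Cxcl9, Ppp2r3c (0.17) to Cxcl10, Zkscan2 (0.21) to Ccl22, Dhx57 (0.24) to Ccl17 and Ptchd1 (0.25) to Ccl20. With 21770 genes and few regions each, such likeness is a description only.

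The other chemokine genes were called at a rate near the background: 8 of 29 (27.6%) had more regions in embryonic libraries and none at day 6, with a median difference of 2.33 beside 2 over all genes. Among the genes called, the largest differences were at Cx3cl1 (7.75 ± 0.5 SD, n = 4, against 2.67 ± 1.51 SD, n = 6), Ccl9 (5.75 against 1.33) and Cxcl12 (6.25 against 2.17), each with an adjusted p of 0.0293 in the exact permutation test. Cxcl12 encodes the ligand of CXCR4, which acts on early thymocytes in the cortex. Part of the Cx3cl1 window is the same DNA as the Ccl22 window. Ccl25, the CCR9 ligand that draws progenitors to the thymus, had a start peak in all 10 libraries, as Cxcl10 did.

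Of the chemokine receptors, 3 of 22 were called, all with more regions in embryonic libraries. This share of 13.6% was below the 22.5% of all genes, and the median difference of 1.46 was below that of 2 over all genes. Those called were Ccr10 (10.5 against 3.5), Cxcr1 (6 against 0.5) and the scavenging receptor Ackr2 (8.25 against 3.33), each with an exact permutation adjusted p of 0.0293. The members' own signalling receptors, named outside the naming rule, were not called: Ccr7 had 5.25 ± 1.89 (SD, n = 4) against 4 ± 2.83 (SD, n = 6), Ccr4 5.75 against 3.67, Ccr6 6 against 3.67 and Cxcr3 0 against 0.833. Ackr4, which scavenges CCL19 and CCL21, had 10, 10, 10 and 14 regions in embryonic libraries, 10 in mTEC2 replicate 1 and 0 to 5 in the other day 6 libraries (exact permutation adjusted p = 0.0677).

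Of the lymphotoxin and NF-kB genes, 6 of 20 were called with more regions in embryonic libraries and none at day 6 (30%, median difference 3.21), beside 22.5% and a median of 2 over all genes. Nfkb1, the p105 and p50 subunit, had 26.2 against 10 regions, Traf3, an inhibitor of the alternative pathway, 17 against 6.83, and Tnfrsf11a, the RANK receptor, 15.5 against 6. Of the interferon genes, 5 of 16 were called in that direction and none in the other (31.2%, median difference 3.29). They included the transcription factor gene Irf8 (9.75 against 3.17) and the receptor gene Ifnar2 (11.2 against 4.67). These 5 named genes had an exact permutation adjusted p of 0.0293. These counts, like the members', carry the difference in list length.

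Marker lists were read by region counts and at start sites. Over all genes, 22.5% were called with more regions in embryonic libraries and 0.294% with more at day 6, with a median difference of 2. Of 15 TEC genes, 11 (73.3%) were called with more regions in embryonic libraries, with a median difference of 5.75. The largest were at the transcription factor genes Trp63 (22 against 6.17) and Foxn1 (12.8 against 4) and the keratin gene Krt5 (8.75 against 1.17), with exact permutation adjusted p of 0.0418, 0.0418 and 0.0293. None of 12 thymocyte genes was called (median difference 0.333). Of 10 mesenchyme and endothelium genes, 3 were (30%, near the 22.5% of all genes), with a median difference of 3.33. They were Col1a2, Pdgfrb and Col1a1, all with more regions in embryonic libraries. Of 12 dendritic cell and macrophage genes, Clec9a had more regions in embryonic libraries (3.75 against 0.667). Adgre1, which encodes the macrophage marker F4/80, had more at day 6, with 2.75 ± 0.5 (SD, n = 4) against 6.83 ± 2.14 (SD, n = 6). Both genes had an exact permutation adjusted p of 0.0418. These shifts move with the members' embryonic against day 6 difference, and their part in it was not tested. Like the members' counts, they carry the difference in list length, and with lists of equal length no gene was called.

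At start sites, of 13 TEC genes with a listed start, all 13 had a start peak in each embryonic library and 6 to 12 at day 6. Epcam, Krt8, Ctsl, Pax9 and Aire had one in all 10 libraries, Krt5 and Krt14 in 5 each and Foxn1 in 4. Of 10 thymocyte genes, 1 had a start peak in each embryonic library, 0 to 3 in 5 day 6 libraries, and 8 in mTEC2 replicate 1. Bcl11b had one in 8 libraries, Cd3g in 4 and Cd3e in 3, while Rag2 and Ptprc had none anywhere. Of 9 dendritic cell and macrophage genes, 0 or 1 had one in any library. Flt3 had one in 8 libraries and Siglech in 1, and the others, among them Itgax, Xcr1, Cd68 and Lyz2, had none. Of 5 mesenchyme and endothelium genes, 3 or 4 had one in embryonic libraries and 0 or 1 at day 6. The library mTEC2 replicate 1 also had calls at -8.43 kb of Ccl21a, -14.69 kb of Ccl20 and -9.82 kb of Ccl22, which mTEC2 replicate 2 lacked. All 4 embryonic libraries called these regions too, as did both mTEC1 libraries at -8.43 kb and mTEC1 replicate 1 at -9.82 kb. The mTEC2 lists held 101917 peaks in replicate 1 and 40858 in replicate 2. The part of thymocyte DNA or of list length in those calls was not tested. The Ccl22 difference was 3.15 without mTEC2 replicate 1.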

How the data were processed

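Peak lists of 10 ATAC-seq libraries were used, 1 per library, so replicates were not pooled. The submitters' processing notes name MACS2, Picard, Bowtie2 and cutadapt and the build mm10. Versions, order and any shift of read ends are not given in the sources used here. Per the labels, the lists describe nucleosome-free chromatin. The authors deposited for each peak a score, a fold enrichment (a ratio to the caller's background) and a −log10 p and −log10 q. The score was not used. The smallest −log10 q was 1.0002. Lists hold no counts, so the read depth is unknown, and intervals for counting error could not be computed. Longer lists may come from deeper libraries.

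Peaks that overlapped by 1 bp or touched were merged, and a library called a region when any of its peaks overlapped it. Regions were counted in each gene span with 25 kb on each side for 21770 protein-coding genes of a RefSeq table (GRCm38.p6). Start sites and promoter sequences came from RefSeq. Groups were compared by exact permutation with Benjamini-Hochberg adjustment over all genes and a threshold of 0.05, tested on simulated data. Within-list strength is the percent of peaks of that list with a lower −log10 q. Named were the members, the 3 genes most like each, the called list genes with the 3 largest differences per direction, and genes in the windows. One gene that the rule selects is not reported here. Ccr7, Ccr4, Ccr6, Cxcr3, Ackr4, Ccl25 and single marker genes were named after their values were seen. The members and lists were chosen with earlier results of these data known. No sequences of peaks were read. Python 3.11.15, numpy 2.4.6, pandas 2.3.3, scipy 1.17.1 and matplotlib 3.10.9 were used.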

Additional observations from a re-analysis of the deposited data

Results flagged for a closer look

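The embryonic Ccl21a window had 7 regions in 3 libraries and 6 in E15 replicate 2, the lowest. The embryonic Ccl22 window had 5 regions in 3 libraries and 4 in E15 replicate 1. At day 6 the Ccl22 window had 2 regions in 5 libraries and 0 in mTEC2 replicate 2, the library with the shortest list. Each of these lies apart because all other libraries of its set tie, so a gap of 1 or 2 regions spans the whole range. The nominal rate of about 1 in 20 groups by chance need not hold for these counts.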

How the results depend on the processing

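Unless stated, the values concern embryonic against day 6 counts. Of the members, 1 was called, and 0 with lists of equal length, per 100000 peaks, as percentiles within a library, or with the replicate block. The number was 7 with −log10 q of at least 2, 5 with at least 5, 6 with windows of 50 kb, 6 where 50% of a region had to be covered, and 7 by bases covered. Among all genes 4966 were called, and 0 with lists of equal length, per 100000 peaks, as percentiles or with the replicate block. The number was 13628 and 15631 with −log10 q of at least 2 and 5, 2922 and 8403 with windows of 10 and 50 kb, 10651 with 50% of a region covered and 16227 by bases covered. Leaving out 1 library gave 0 to 1 members and 0 to 7750 genes. It was 0 genes without 8 of the libraries, 5421 without E17 replicate 1 and 7750 without mTEC2 replicate 1. Tied counts and few arrangements limit the smallest p to 0.00476, and to a larger value with a library left out.

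The difference turned for Ccl21a with lists of equal length (-1), per 100000 peaks (-0.822) and as percentiles (-6.93). It turned likewise for Ccl19 (-1.25, -0.385 and -6.82), and for Ccl17 per 100000 peaks (-0.154). For Ccl22 the exact permutation adjusted p was 0.0956 per 100000 peaks and 0.176 as percentiles. Ccl20 was called in windows of 10 kb (difference 1, exact permutation adjusted p = 0.0355). The cause of these changes was not tested. Over the 5 groups 0 members and 0 genes were called under every alternative run, and the few pairings limit what this test can call. The pathway and marker lists had 38 genes called, and 18 in windows of 10 kb. The 3 regions called in all 4 embryonic and no day 6 library became 0 with lists of equal length. Nothing in the labels says that same-numbered libraries share more than a number. Their deviations correlated over genes at -0.66 (E17 with mTEC2) to 0.32 (mTEC4 with mTEC1). List lengths differ within groups, so these values cannot show whether a batch was shared. With the replicate block over 100 arrangements, Ccl22 kept its difference of 3.08 (exact permutation p = 0.01, adjusted p = 0.054).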
